A study of Mus musculus with 10 samples.

Results

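Axon guidance ligands and receptors were compared between fibroblasts with and without surface CD90 from mouse pancreatic ductal adenocarcinoma. Members were the protein-coding genes whose symbols belong to the semaphorins of classes 3 to 7, their plexin and neuropilin receptors, the Slits and Robos, the netrins and Unc5 receptors, and the ephrins and Eph receptors. The rule found 68 genes among the 48471 genes of the deposited files (21753 of them protein-coding). RNA had been sequenced from cancer-associated fibroblasts (myCAFs, the myofibroblastic kind), flow-sorted from tumours that grew in male C57BL/6J mice after KPC T-LOH organoids were transplanted orthotopically. Both fractions came from the same tumours and share the host strain and the transplanted organoids, and folds are given as CD90-negative over CD90-positive. There were 5 tumour pools with 1 library of each fraction, and by their titles pools 1 to 5 held 4, 1, 2, 3 and 1 animals. That gives 11 animals in the titles beside 5 mice in the design text, and n is given as pools. The other sort markers, the organoid genotype beyond its name and the number of organoid lines are not stated in the labels.

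Semaphorins are secreted or membrane-bound cues that signal through plexins, and most secreted class 3 members also need a neuropilin to bind. Slits bind Robo receptors, netrins bind Dcc, neogenin and Unc5 receptors, and ephrins bind Eph receptor tyrosine kinases on a neighbouring cell, with signalling in both directions. These systems steer growing axons in the embryo, and in adult tissues and tumours they act on cell adhesion, vessel growth and cell sorting.

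Depth ran from 11.7 M to 47.7 M estimated counts per library (M for 1e6), with 3.71 M to 28.5 M of them on protein-coding genes of the nucleus. Thy1, which encodes CD90, averaged 8.47 ± 5.18 against 89.1 ± 29.5 CPM (counts per 1e6 counts of the library, TMM-scaled) in the negative and positive fraction (SD, n = 5), and the groups did not overlap. Mitochondrial rRNA took 35.6% to 84.4% of the counts of CD90-negative and 10.5% to 44.8% of those of CD90-positive libraries. Of 11 tested cancer epithelial markers, 7 were called higher in the CD90-negative fraction and 0 lower, with a summed level of 2182 to 9369 against 509 to 4289 TPM (length-scaled abundance, rescaled here to nuclear protein-coding genes). Fibroblast markers went the other way, with 8 of 9 called lower and sums of 5352 to 20612 against 29114 to 53066 TPM. Endothelial markers had 3 of 8 called higher (Pecam1, Cdh5 and Tie1; sums 55.2 to 391 against 51.8 to 125.8 TPM), and macrophage and leukocyte markers 1 of 6 (Itgam; 55.4 to 153 against 39.4 to 59.8 TPM). Of the Schwann and glial markers 0 of 5 were called (51.6 to 155 against 26.4 to 69.3 TPM), with Sox10 at 0 in every library, and of the neuronal markers 0 of 2 (11.8 to 139.9 against 48.0 to 161.2 TPM), with Elavl4 at 0. Pericyte markers had 0 of 6 called (18.1 to 230.4 against 40.2 to 105.8 TPM). Mesothelial markers had 1 of 4 higher (Msln, with Krt5 at 0; 401.2 to 642.5 against 372.6 to 731.9 TPM). The other tested mesothelial markers had log2 folds below 0 and did not pass (Upk3b -2.04, Wt1 -1.96 and Lrrn4 -1.32). Acinar markers had 1 of 2 higher (Ctrb1; 19.4 to 148.6 against 6.24 to 35.9 TPM), and Cela1 did not pass (log2 fold -0.31). The part of these cell types and of the mitochondrial share in the values that follow was not tested. A fit named below includes that share but hardly separates it from the fraction. In such sorted bulk samples, fewer cells of a type and less RNA per cell cannot be told apart.

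Guidance genes moved in both directions, and 3 families as grouped here had members called each way. One of them joins semaphorin classes 4 to 7, where the higher members are of class 4 and the lower are Sema5a and Sema7a. For the Robos this rests on Robo4, with 255 against 5 counts. Of the 68 members, 60 had enough counts to be tested, and 11 rose and 11 fell in the CD90-negative fraction (edgeR quasi-likelihood test with the pool as a block, Benjamini-Hochberg adjusted p under 0.05 over all genes). These 22 are 36.7% of the tested members, where 12.9% of all 15378 tested genes were called. In each direction the members' share was 18.3%, beside 5.83% of all genes called higher and 7.05% called lower. Abundant genes were called more often, so the shares were also read in the fit restricted to mean log2 CPM values of 3 or more, where 21 of 38 members and 25.4% of 7448 genes passed. The median log2 fold over the tested members was 0.0014, and over all genes 0.036. Every called member moved the same way in 5 of 5 pools, and 19 of the 22 by at least 2-fold. Ligands had 8 members higher and 7 lower of 34 tested, and receptors 3 higher and 4 lower of 26.

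**Figure D1:**
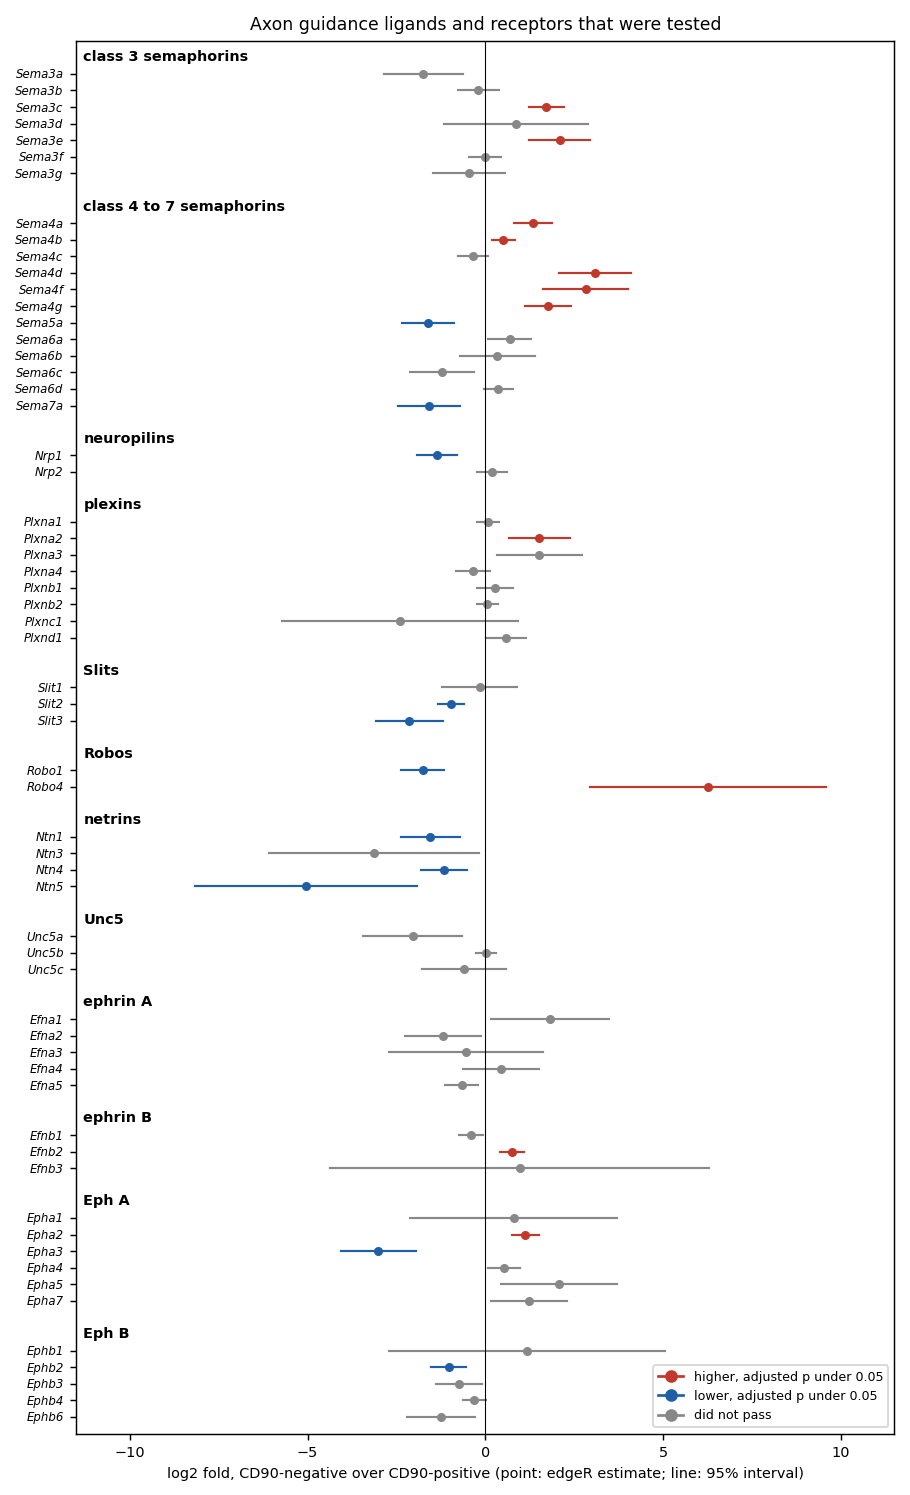
Log2 fold of CD90-negative over CD90-positive for the 60 tested members by family, with points for the edgeR estimate and lines for the 95% interval; red marks the 11 members called higher, blue the 11 called lower and grey those that did not pass. Members of both colours stand in the class 4 to 7 semaphorins, the Robos and the class A Eph receptors, whereas the called netrins and Slits lie to the left of 0 only.

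Several of these calls depend on how the comparison was fitted. With each pool left out in turn, 9 of the 22 remained called every time: Epha2, Epha3, Robo1, Sema3c, Sema3e, Sema4a, Sema4d, Sema4g and Slit2. Without the block for the pool 11 of the 22 were called, with Ephb2, Ntn1, Ntn5, Robo4, Sema3c, Sema3e, Sema4a, Sema4b, Sema4g, Sema5a and Slit3 lost, and without pools 4 and 5 (which hold the negative and the positive library with the lowest depth over protein-coding genes of the nucleus) 7 were called: Epha3, Robo1, Sema3c, Sema3e, Sema4d, Sema4f and Sema4g. Adding the share of mitochondrial rRNA as a covariate left 0 members called by edgeR, with 4 members at an unadjusted p under 0.05, and 0 of all 15378 genes. In every pool that share was higher in the negative library (56.3%, 55.9%, 35.6%, 84.4% and 64.2% against 23.8%, 22.4%, 10.5%, 33.0% and 44.8% in pools 1 to 5). This fit therefore hardly separates the share from the fraction, and its lost calls cannot decide the part of either. Epha3, Robo1 and Sema4d passed in every other fit that tested them.

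The 3 families with members called each way were set side by side at their promoters. RefSeq promoters (GRCm38.p6, the build of that table and not of the deposited files) were matched for 59 of the 68 members and 21 of the 22 called. The 250 bases before the listed start are printed for a higher and a lower member, each with a single listed start, of the class A Eph receptors, the Robos and the class 4 to 7 semaphorins. Capitals mark letters that match GGAATG (TEAD), TGANTCA (AP-1), CACCTG (E-box), CAGACA (SMAD) or GGGCGG (GC box) on either strand.
Epha2, chr4:141300971-141301220, plus strand: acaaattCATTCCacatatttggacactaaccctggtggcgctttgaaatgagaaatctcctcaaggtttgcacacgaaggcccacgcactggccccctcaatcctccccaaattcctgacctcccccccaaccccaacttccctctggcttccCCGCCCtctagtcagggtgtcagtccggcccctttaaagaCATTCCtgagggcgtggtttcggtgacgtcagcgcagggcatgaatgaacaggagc
Epha3, chr16:63864176-63864425, minus strand: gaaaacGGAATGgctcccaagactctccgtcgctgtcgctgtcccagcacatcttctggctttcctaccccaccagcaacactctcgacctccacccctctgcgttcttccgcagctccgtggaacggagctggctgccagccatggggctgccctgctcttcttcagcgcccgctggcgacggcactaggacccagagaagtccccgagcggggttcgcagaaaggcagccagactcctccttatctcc
Robo4, chr9:37401722-37401971, plus strand: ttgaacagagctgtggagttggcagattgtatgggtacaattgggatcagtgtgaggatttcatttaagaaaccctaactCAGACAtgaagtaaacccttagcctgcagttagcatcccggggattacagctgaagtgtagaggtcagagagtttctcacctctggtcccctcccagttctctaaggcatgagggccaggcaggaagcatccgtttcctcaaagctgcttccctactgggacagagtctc
Robo1, chr16:72662899-72663148, plus strand: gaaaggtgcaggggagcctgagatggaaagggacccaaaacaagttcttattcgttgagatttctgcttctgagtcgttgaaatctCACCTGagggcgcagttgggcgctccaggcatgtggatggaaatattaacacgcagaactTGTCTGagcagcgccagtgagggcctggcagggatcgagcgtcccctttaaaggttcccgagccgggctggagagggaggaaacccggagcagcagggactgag
Sema4f, chr6:82939770-82940019, minus strand: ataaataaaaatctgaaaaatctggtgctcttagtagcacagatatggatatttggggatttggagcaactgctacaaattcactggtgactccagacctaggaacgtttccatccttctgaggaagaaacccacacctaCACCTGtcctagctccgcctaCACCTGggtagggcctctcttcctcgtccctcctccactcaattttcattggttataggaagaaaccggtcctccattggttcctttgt
Sema5a, chr15:32244563-32244812, plus strand: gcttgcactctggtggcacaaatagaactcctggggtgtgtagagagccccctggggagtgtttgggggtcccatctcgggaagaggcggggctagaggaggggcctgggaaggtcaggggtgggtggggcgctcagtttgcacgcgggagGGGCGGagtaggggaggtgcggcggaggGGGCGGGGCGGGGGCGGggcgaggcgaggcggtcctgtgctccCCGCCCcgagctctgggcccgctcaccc
Epha2, whose RNA was higher, holds 2 TEAD matches and 1 GC box, and Epha3, whose RNA was lower, holds 1 TEAD match. The Sema5a window holds 5 GC boxes, some of which overlap, and the Sema4f window holds 2 E-boxes. All counts that follow cover the same window before each listed start. They are given per promoter, with 17 promoters for the 11 higher and 10 for the 10 lower members matched. The SMAD letters were found in 4 of the 17 and 5 of the 10. They were in 18 of 75 promoters (24.0%) of all members, beside 13.8% of the promoters of tested genes. GC boxes stood in 12 of the 17 and 6 of the 10, in 70.7% of the members' promoters and in 56.4% of those of tested genes. E-box letters were in 13.3% of the members' promoters against 15.6%, TEAD letters in 10.7% against 11.03% and AP-1 letters in 4.00% against 4.88%. These are counts of letters with no test.

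Among the class 3 semaphorins, which are secreted, Sema3c and Sema3e rose and no member fell. Sema3c (ENSMUSG00000028780, chromosome 5) measured 86.7, 76.1, 24.1, 73.8 and 69.6 CPM in the CD90-negative libraries of pools 1 to 5, and 27.7, 12.8, 6.36, 29.0 and 32.3 CPM in the CD90-positive ones. The negative library of pool 3 lay far below the other 4 and within the range of the positive libraries, yet above its own partner. The difference was a log2 fold of 1.72 (SE 0.22, adjusted p = 0.0025). For Sema3e (ENSMUSG00000063531, chromosome 5), a ligand that can bind Plxnd1 without a neuropilin, the values were 50.8, 60.0, 13.5, 43.3 and 72.3 against 3.68, 10.1, 3.92, 19.1 and 29.4 CPM. Again the lowest negative library was that of pool 3, below the positive libraries of pools 4 and 5 (log2 fold 2.09, SE 0.38, adjusted p = 0.0098). Both calls were lost without the block, at adjusted p values of 0.0556 and 0.100.

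Sema3a, the classical repulsive ligand of Nrp1, was lower in 5 of 5 pools but did not pass. It measured 14.2, 3.18, 69.5, 8.86 and 3.47 against 31.8, 41.5, 75.7, 24.0 and 19.5 CPM, for a log2 fold of -1.74 (95% interval -2.85 to -0.64, adjusted p = 0.0504). The negative library of pool 3 stood near its positive partner, and without that pool Sema3a was called (log2 fold -2.18, adjusted p = 0.0111), as it was with DESeq2 (adjusted p = 0.00023). Without the block its log2 fold was -0.95 (adjusted p = 0.543). Sema3b and Sema3f had log2 folds of -0.20 and -0.020, with 95% intervals of -0.77 to 0.37 and -0.47 to 0.43. The sign for Sema3f changed in 8 of the other fits and that for Sema3b with a transcript length offset. Sema3d and Sema3g, at lower mean levels, did not pass either.

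Of the membrane-bound semaphorins of classes 4 to 7, 5 rose and 2 fell among 12 tested. All 5 that rose belong to class 4, of which only Sema4c did not pass. Sema4d (ENSMUSG00000021451, chromosome 13), the ligand of Plxnb1 known from T cells, measured 6.47, 10.2, 2.44, 5.13 and 12.4 CPM in the negative and 0.512, 1.59, 0.241, 1.17 and 0.982 CPM in the positive libraries. No positive library reached the lowest negative one (log2 fold 3.07, SE 0.45, adjusted p = 0.0040). Sema4d had 1000 counts over the 5 negative and 139 over the 5 positive libraries. Of the 6 tested macrophage and leukocyte markers, Itgam was called higher (1063 against 195 counts, log2 fold 2.68, adjusted p = 0.0268). The other 5 had log2 folds above 0 and did not pass (Ptprc 1.64, Cd68 0.51, Csf1r 0.058, Lyz2 1.04 and Cd14 1.39). Their counts, not scaled for depth, were 139 against 73, 613 against 521, 676 against 930, 402 against 249 and 1394 against 821. Sema4g (ENSMUSG00000025207, chromosome 19) stood at 25.4, 30.8, 7.54, 16.6 and 49.8 against 3.21, 7.56, 3.26, 6.38 and 20.2 CPM. Its groups overlapped through the positive library of pool 5 and the negative library of pool 3, while each pool had the higher value in the negative fraction (log2 fold 1.76, SE 0.29, adjusted p = 0.0056; adjusted p = 0.115 without the block).

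Sema4a (ENSMUSG00000028064, chromosome 3) gave 12.7, 17.5, 8.37, 7.48 and 36.1 against 6.80, 6.05, 2.88, 3.84 and 11.1 CPM. Pool 5 was the highest of both fractions, and the log2 fold was 1.33 (SE 0.24, adjusted p = 0.0075; 0.0948 without the block). Sema4f (ENSMUSG00000000627, chromosome 6) averaged 27.1 ± 2.45 against 5.35 ± 4.43 CPM (SD, n = 5) with no overlap (log2 fold 2.82, SE 0.52, adjusted p = 0.0111; 0.0573 without pool 1). Its spread among negative libraries was the narrowest of the 5 class 4 genes relative to the mean. Sema4b (ENSMUSG00000030539, chromosome 7) averaged 58.3 ± 23.8 against 43.0 ± 24.2 CPM, a small step of 0.50 on the log2 scale (SE 0.14, adjusted p = 0.0480). The adjusted p of Sema4b ran from 0.0557 to 0.173 when any pool was left out, and was 0.510 without the block. Sema4c averaged 15.5 ± 3.46 against 20.02 ± 5.47 CPM (95% interval of the log2 fold -0.78 to 0.08).

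The 2 that fell were Sema5a and Sema7a. Sema5a (ENSMUSG00000022231, chromosome 15), a transmembrane protein with thrombospondin repeats, averaged 14.9 ± 15.4 against 33.6 ± 13.3 CPM (n = 5 pools), a log2 fold of -1.61 (SE 0.32, adjusted p = 0.0124). Pool 3 held the highest value of both fractions, at 41.3 against 49.9 CPM. The call of Sema5a was lost without pool 1 (adjusted p = 0.0555) and without the block (log2 fold -1.17, adjusted p = 0.290). Sema7a (ENSMUSG00000038264, chromosome 9), which is anchored by a lipid and can bind Plxnc1 and integrins, averaged 7.80 ± 4.64 against 22.8 ± 9.24 CPM (log2 fold -1.59, SE 0.38, adjusted p = 0.0261). In pool 2 the 2 fractions were close, at 15.9 and 17.0 CPM. Leaving out pool 1, 4 or 5 gave adjusted p values of 0.116, 0.0857 and 0.0667, and with a transcript length offset the log2 fold was -0.67 (adjusted p = 0.482). Of the class 6 members, Sema6a (log2 fold 0.68, 95% interval 0.08 to 1.29) and Sema6d (0.37, -0.05 to 0.79) did not pass. At lower mean levels, Sema6b (0.34, -0.70 to 1.38) and Sema6c (-1.22, -2.13 to -0.32, adjusted p = 0.0794) did not pass either. Sema6c was lower in 5 of 5 pools, and it was called with DESeq2 and without pool 3.

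**Figure D2:**
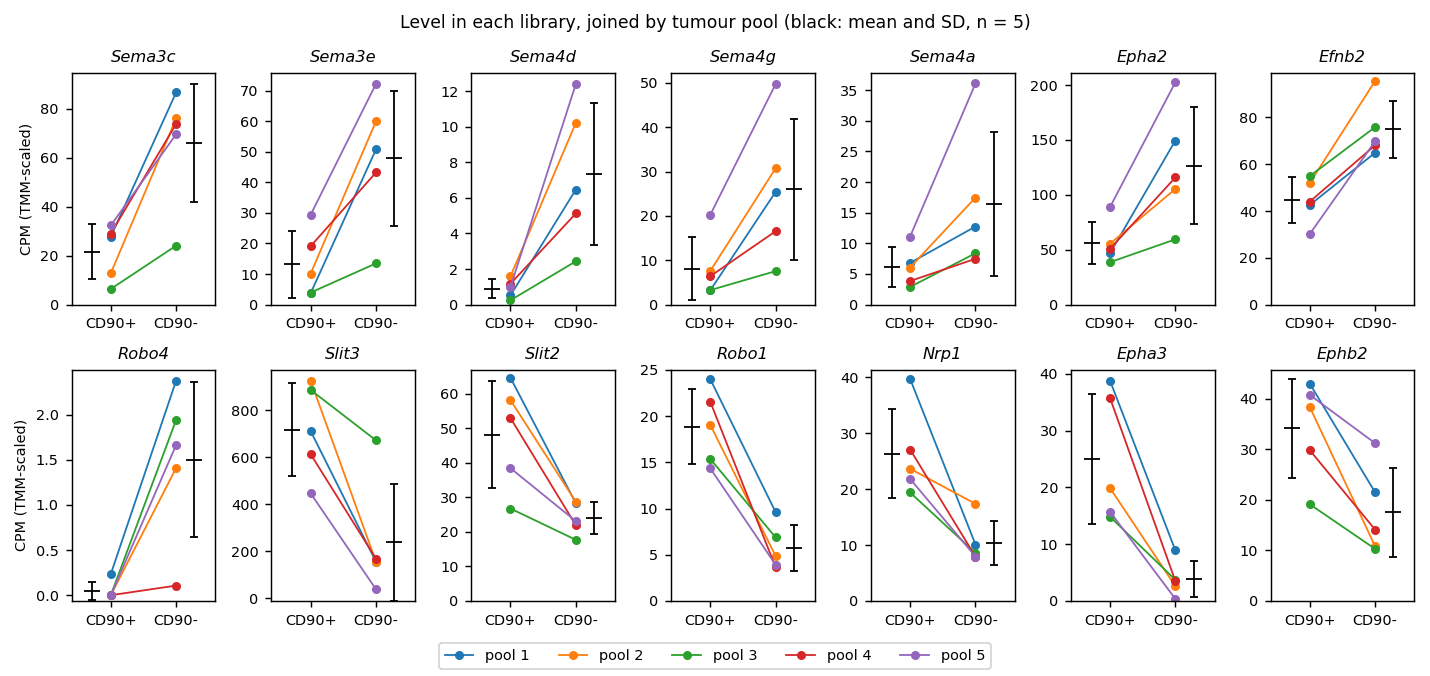
CPM of 14 called members in each library, in the CD90-positive (left) and CD90-negative (right) fraction, with lines joining the libraries of a tumour pool and black bars for the mean and SD (n = 5). The lines run upward in the first 8 panels and downward in the last 6 in each pool, and the pool 3 line of Slit3 is flatter than the others.

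Of the semaphorin receptors, Nrp1 fell and Plxna2 rose. Nrp1 (ENSMUSG00000025810, chromosome 8), the co-receptor of Sema3a and of VEGF-A, measured 10.1, 17.4, 8.57, 7.90 and 7.94 CPM in negative and 39.7, 23.6, 19.4, 27.1 and 21.8 CPM in positive libraries. The groups did not overlap, although the negative library of pool 2 came close to the lowest positive one. Its log2 fold was -1.36 (SE 0.25, adjusted p = 0.0078), and the adjusted p was 0.0530 without pool 1. Nrp2, the co-receptor favoured by Sema3c and Sema3f, averaged 30.0 ± 12.7 against 24.9 ± 6.58 CPM, with a 95% interval of the log2 fold from -0.23 to 0.60.

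Of 8 tested plexins, only Plxna2 was called. Plxna2 (ENSMUSG00000026640, chromosome 1), a receptor for class 3 and class 6 semaphorins, averaged 79.1 ± 24.5 against 28.1 ± 10.5 CPM (SD, n = 5) with no overlap (log2 fold 1.52, SE 0.37, adjusted p = 0.0327). Its call was lost without pool 1 (adjusted p = 0.114) or pool 5 (0.0753). Intervals around 0 were found for Plxnb2 and Plxna1. Plxnb2, the receptor of class 4 semaphorins that had the highest level of the plexins, averaged 201.8 ± 25.9 against 193.5 ± 23.0 CPM (95% interval of the log2 fold -0.24 to 0.35), and Plxna1 95.5 ± 12.1 against 90.9 ± 9.53 CPM (-0.23 to 0.37). The sign changed for Plxnb2 without pool 1 and for Plxna1 without pool 3, both at -0.02 or nearer to 0. Plxna4 and Plxnb1 had log2 folds of -0.34 and 0.27. Plxnd1, the receptor of Sema3e, was at 119.4 ± 50.1 against 77.2 ± 19.2 CPM, higher in 4 of 5 pools with an interval of 0.02 to 1.15 that did not survive the adjustment (adjusted p = 0.1715). Plxnc1, a receptor of Sema7a, was near 1 CPM (log2 fold -2.40, adjusted p = 0.353). Plxna3 was not among the called either (log2 fold 1.51, adjusted p = 0.0987), although its groups did not overlap.

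Of the 3 Slits, Slit2 and Slit3 fell, and Slit3 had the highest level per length of all members in the CD90-positive cells. Slit3 (ENSMUSG00000056427, chromosome 11) measured 155, 155, 672, 168 and 37.5 CPM in the negative libraries of pools 1 to 5 and 712, 927, 887, 614 and 447 CPM in the positive ones. The negative library of pool 3 lay inside the positive range and the other 4 lay well under it. The log2 fold was -2.14 (SE 0.41, adjusted p = 0.0129). Without pool 1 the adjusted p was 0.0615, and without the block the log2 fold was -1.59 (adjusted p = 0.147). Slit2 (ENSMUSG00000031558, chromosome 5) stood at 28.3, 28.7, 17.7, 21.9 and 23.1 against 64.6, 58.1, 26.7, 52.9 and 38.4 CPM. The groups met only at the positive library of pool 3, which lay below 2 negative libraries, and the log2 fold was -0.96 (SE 0.16, adjusted p = 0.0061). With a transcript length offset it was -0.31 (adjusted p = 0.437). Slit1 averaged 4.94 ± 3.48 against 5.96 ± 4.23 CPM and did not pass (log2 fold -0.16, 95% interval -1.23 to 0.90).

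Both tested Robo receptors were called, in opposite directions and at low levels. Robo1 (ENSMUSG00000022883, chromosome 16), the widely expressed Slit receptor, measured 9.60, 4.86, 6.87, 3.63 and 3.92 against 24.0, 19.1, 15.4, 21.5 and 14.3 CPM. The groups did not overlap, and Robo1 fell by 1.76 on the log2 scale (SE 0.27, adjusted p = 0.0042). Robo4 (ENSMUSG00000032125, chromosome 9), known from endothelial cells, had 69, 42, 98, 1 and 45 counts in the negative libraries and 5, 0, 0, 0 and 0 counts in the positive ones. All 5 counts of the positive fraction came from pool 1, and the negative library of pool 4 had a single count. The fitted log2 fold of 6.25 (SE 1.49, adjusted p = 0.0229) rests on these few counts and is not a measure of size. Among the endothelial markers in the same libraries, Pecam1 had 1885 against 250, Cdh5 2824 against 88 and Tie1 922 against 46 counts, all called higher. Of the 8 tested endothelial markers, 6 had their highest negative level in pool 2 (Cdh5 at 62.2 CPM there, 8.64 in pool 1 and 8.12 in pool 4). Robo4 stood at 1.41 CPM in that library, 2.38 in pool 1 and 0.107 in pool 4. Kdr (3108 against 4890 counts, log2 fold -0.70) and Eng (1704 against 4611 counts, log2 fold -1.79) did not pass and were lower in 4 of 5 pools, and Tek, Emcn and Vwf did not pass. Robo4 lost its call without pool 2, 4 or 5 (adjusted p of 0.0617, 0.0576 and 0.0524) and was under the count filter without pool 1 or 3. The 2 other Robo genes, Robo2 and Robo3, were under the count filter.

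Netrins were all at low level, and 3 of 4 fell. Ntn4 (ENSMUSG00000020019, chromosome 10), a laminin-like protein of basement membranes, averaged 8.57 ± 1.94 against 19.8 ± 6.81 CPM (SD, n = 5) with no overlap (log2 fold -1.17, SE 0.29, adjusted p = 0.0293). Ntn1 (ENSMUSG00000020902, chromosome 11), the founding axon attractant, averaged 4.72 ± 3.74 against 12.2 ± 4.95 CPM (log2 fold -1.55, SE 0.37, adjusted p = 0.0240). In pool 3 its levels were 11.2 and 13.2 CPM, the smallest step of the 5 pools. Ntn5 (ENSMUSG00000070564, chromosome 7) had 0, 0, 23, 0 and 5 counts in the negative and 79, 42, 90, 106 and 25 counts in the positive libraries, so that 3 negative libraries had none (adjusted p = 0.0420). These calls are fragile: leaving out a pool gave adjusted p values of up to 0.0984 for Ntn4 (lost without pool 1, 2 or 4), 0.125 for Ntn1 (without pool 1, 2, 4 or 5) and 0.155 for Ntn5 (without pool 1, 2, 4 or 5). In the fit that includes the share of mitochondrial rRNA, and hardly separates it from the fraction, the log2 fold of Ntn5 turned to 4.05, not called. Ntn3 did not pass (3.51 ± 1.30 CPM in the positive and 0.778 ± 0.980 CPM in the negative fraction).

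The netrin receptors of the Unc5 family were not called. Unc5b averaged 115.5 ± 16.4 against 113.8 ± 17.2 CPM, and the 95% interval of its log2 fold, -0.26 to 0.30, lies within 2-fold either way. Its sign changed without pool 1 or 4 and with the mitochondrial share as a covariate, at values of -0.020, -0.0036 and -0.041. Unc5a averaged 4.31 ± 4.68 against 12.5 ± 3.48 CPM and missed the threshold (log2 fold -2.05, adjusted p = 0.0614). Unc5c averaged 3.14 ± 2.35 against 4.90 ± 3.18 CPM and did not pass, and Unc5d was under the count filter.

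Class A Eph receptors had a member called in each direction. Epha2 (ENSMUSG00000006445, chromosome 4), a receptor abundant in epithelia and carcinomas, measured 149, 105, 59.4, 116 and 202 CPM in the negative libraries and 46.7, 55.4, 38.6, 50.7 and 88.7 CPM in the positive ones. Its groups overlapped only through the negative library of pool 3 and the positive library of pool 5, and it rose by 1.12 on the log2 scale (SE 0.17, adjusted p = 0.0042). Epha3 (ENSMUSG00000052504, chromosome 16), known from mesenchymal cells, was at 8.92, 2.61, 3.72, 3.52 and 0.369 against 38.8, 19.9, 14.8, 35.8 and 15.7 CPM. Every negative library was below every positive one, and Epha3 fell by 3.01 on the log2 scale (SE 0.46, adjusted p = 0.0056), an 8.08-fold difference. Epha4 was higher in 5 of 5 pools without overlap, at 17.5 ± 1.31 against 12.3 ± 2.25 CPM, but did not pass (log2 fold 0.52, adjusted p = 0.127). Epha1, Epha5 and Epha7 were at low level and did not pass, and Epha6, Epha8 and Epha10 were under the count filter, Epha8 with 0 counts in every library.

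Of 5 tested class B receptors, Ephb2 fell and no other was called. Ephb2 (ENSMUSG00000028664, chromosome 4), which binds the B ephrins, measured 21.5, 10.8, 10.3, 14.1 and 31.2 against 43.0, 38.4, 19.1, 29.8 and 40.8 CPM. The negative libraries of pools 1 and 5 lay within the positive range, and the log2 fold was -1.04 (SE 0.22, adjusted p = 0.0132). Ephb2 lost its call without pool 1 (adjusted p = 0.0656) and without the block (adjusted p = 0.105). Ephb3, Ephb4 and Ephb6 were lower in 5 of 5 pools but did not pass, with log2 folds of -0.73, -0.31 and -1.25 and adjusted p values of 0.135, 0.201 and 0.0859. In the fit with the mitochondrial share the signs of Ephb3 and Ephb4 turned (0.42 and 0.16). Ephb1 had a wide interval.

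Among the ephrins only Efnb2 was called. Efnb2 (ENSMUSG00000001300, chromosome 8), a transmembrane ligand known from arterial endothelium, measured 65.0, 95.6, 75.9, 68.1 and 69.9 against 42.6, 52.0, 54.9, 44.0 and 30.2 CPM. The groups did not overlap, and the step was modest, at a log2 fold of 0.76 (SE 0.15, adjusted p = 0.0115; 0.0523 without pool 1). Efnb1, its relative on the X chromosome, averaged 42.6 ± 5.65 against 56.0 ± 5.97 CPM, lower in 5 of 5 pools and not past the threshold (log2 fold -0.40, adjusted p = 0.117). Of the ephrins with a lipid anchor, Efna5 averaged 26.3 ± 17.6 against 37.7 ± 11.6 CPM (log2 fold -0.67, adjusted p = 0.0691). Efna5 was called without pool 3, at -0.86 with an adjusted p of 0.0302. Without the block it was at -0.52 with an adjusted p of 0.469. Efna1, the main ligand of Epha2, averaged 8.26 ± 2.84 against 2.89 ± 1.98 CPM without overlap of the groups, but with an adjusted p of 0.147. Efna2, Efna3, Efna4 and Efnb3 did not pass.

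**Figure D3:**
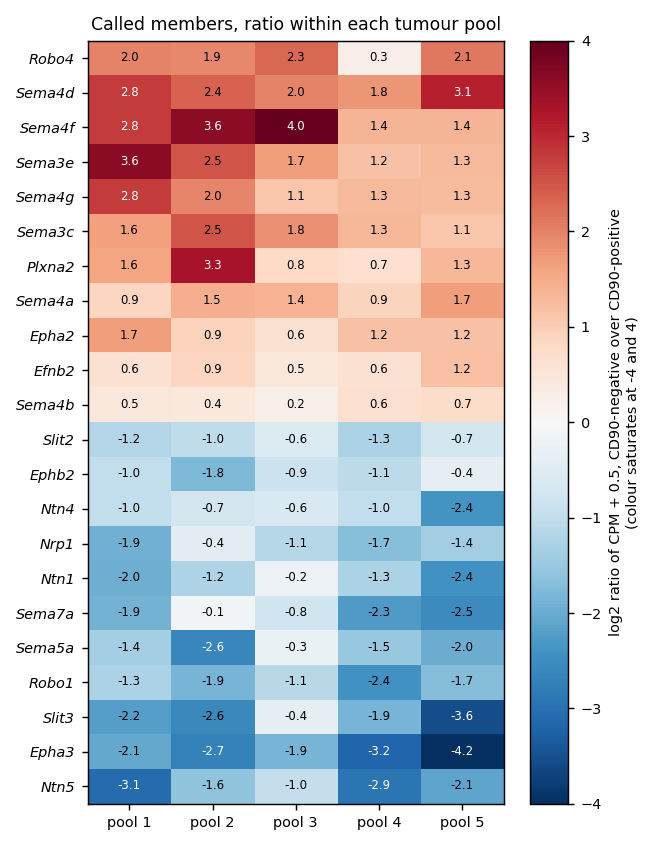
Log2 ratio of CPM (with 0.5 added) of CD90-negative over CD90-positive within each of the 5 tumour pools for the 22 called members, ordered by fitted log2 fold, with red for higher and blue for lower in the CD90-negative library. The sign is the same across each row, and pool 3 is the palest in 8 of the 11 rows of lower members, the exceptions being Ephb2, Nrp1 and Sema7a.

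The median log2 ratio of the 11 members called lower was -1.90, -1.62, -0.81, -1.71 and -2.11 in pools 1 to 5, and that of the 11 called higher was 1.67, 1.96, 1.39, 1.16 and 1.28. For 12 of the 22 the smallest ratio was that of pool 3. These ratios come from the libraries that gave the calls and describe them only. The negative library of pool 3 also had the lowest mitochondrial rRNA share of the negative libraries, at 35.6%. Among these libraries it was the highest for 9 of 9 fibroblast markers (Col1a1 at 9050 CPM with 4766 as the next value, Pdgfra at 182.6 with 69.1) and the lowest for 10 of 11 tested epithelial markers (Krt18 at 228.5 CPM with 438.3 as the next value, Cdh1 at 80.8 with 191.1). The part of these levels in the ratios of pool 3 was not tested.

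Groups that did not overlap were found for 12 of the 60 tested members (20%), beside 7.93% of all tested genes. Besides 9 called members these were Epha4, Efna1 and Plxna3.

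Levels were set side by side on a scale per transcript length, as TPM rescaled to nuclear protein-coding genes. In CD90-positive cells Slit3 led with 659 ± 188 TPM (SD, n = 5), followed by Plxnb2 with 163 ± 26.3 and Epha2 with 95.9 ± 24.7 TPM. In CD90-negative cells Slit3 (240 ± 270 TPM), Epha2 (219 ± 121 TPM) and Plxnb2 (201 ± 43.7 TPM) were within each other's spread. Nrp1 and Nrp2 were at 36.5 ± 11.6 and 21.5 ± 6.54 TPM in positive and at 15.3 ± 5.63 and 27.4 ± 12.4 TPM in negative cells. Among ligands of the neuropilins and Plxnd1, Sema3a was at 48.4 ± 31.4 and Sema3c at 27.4 ± 11.3 TPM in positive cells, and at 30.2 ± 44.4 and 85.3 ± 38.9 TPM in negative cells. In positive and negative cells, Sema3f was at 31.0 ± 11.2 and 40.4 ± 13.3 TPM and Sema3e at 10.2 ± 7.72 and 39.6 ± 19.7 TPM. Vegfa, which is not a member, was at 1371 ± 629 and 1060 ± 323 TPM. The level of Slit2 on this scale is uncertain, because only 15.1% of its TPM in positive and 11.4% in negative libraries lay on transcripts annotated as protein-coding. That share was 57.2% and 65.4% for Epha2, 75.0% and 67.4% for Plxnb2, and 85.4% and 83.6% for Slit3. The order given above therefore holds for all transcripts of a gene, not for the protein-coding ones alone.

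**Figure D4:**
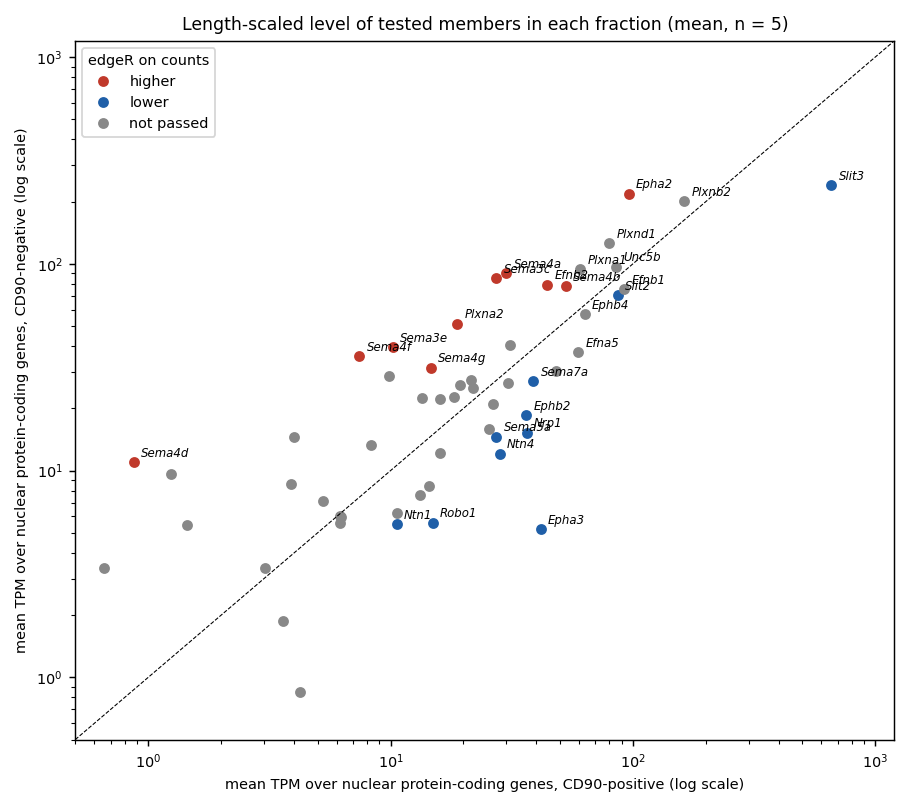
Mean TPM over nuclear protein-coding genes of tested members above 3 TPM in either fraction, CD90-positive on the horizontal and CD90-negative on the vertical axis (both log scales, n = 5), coloured by the edgeR call on counts; the dashed line marks equal levels. Slit3 lies at the far right at 659 against 240 TPM, and Epha3 lies below the line at 41.6 against 5.22 TPM.

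The co-receptors and signal carriers of these pathways also moved both ways. Of 75 genes on that list, 71 were tested, 12 rose and 10 fell (31.0% called, beside 12.9% of all genes). Abundant genes were called more often, with 25.4% of the genes at a mean log2 CPM of 3 or more. The median log2 fold of the list was -0.15. The 8 with the smallest p held 6 that fell. Gpc1, a heparan sulfate proteoglycan that binds Slits, had a log2 fold of -2.15 (SE 0.24, 32.9 against 145.3 CPM on average), and Ptk7, an inactive receptor kinase, of -1.77. Dpysl3, a collapsin response mediator downstream of semaphorins, had -1.54, and Chl1, an adhesion molecule that pairs with Nrp1, -1.84. The actin regulators Mical2 and Enah stood at -1.42 and -0.84. The 2 that rose were Met, the HGF receptor that can pair with class B plexins (1.02, SE 0.17), and Flrt3, a ligand of Unc5 receptors (2.26, SE 0.41). Adjusted p values of these 8 ran from 0.0019 to 0.0073.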

How the data were processed

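RNA from 5 CD90-negative and 5 CD90-positive fractions was made into libraries with a stranded low-input kit, per the labels' protocols. The deposited files give, for each transcript, estimated counts, TPM and an effective length from Salmon 1.9.0 with builds GRCm39 and mm39, per the submitters' processing notes. The annotation release and strand setting were not given in the sources used here, so reads shared with antisense or overlapping genes may be split either way.

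Of 144584 transcripts, 133666 (92.4%) were matched to genes by identifier with GENCODE M21, used for names and biotypes only. The unmatched transcripts held 3.63% to 12.1% of the estimated counts and were left out of the fits. Estimated counts were summed per gene and rounded to whole numbers. Genes were kept by filterByExpr on the group, scaled by TMM and tested with edgeR 4.0.16 (robust quasi-likelihood, tumour pool as a block; R 4.3.3), with Benjamini-Hochberg adjustment over 15378 genes and a threshold of 0.05. SE is the log2 fold divided by the square root of F. CPM are on TMM-scaled library sizes. Deposited TPM were summed per gene and rescaled to the same total over nuclear protein-coding genes, for levels between genes only.

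The pairing comes from the animal numbers that titles of both fractions share. Deviations of same-pool libraries from their group means correlated at 0.06, 0.00, 0.46, 0.03 and 0.19 in pools 1 to 5. The labels do not say that libraries are otherwise separate samples. With the pool as a block, p values measure the spread over pools of the difference between the fractions. Counts were also simulated for these 15378 genes, with 200 of them changed and an assumed pool effect of SD 0.3 on the log2 scale. There the fit recovered 19% of 2-fold and 58% of 4-fold changes, and 8.33% of its calls were unchanged genes. These rates hold for that setting, whereas 12.9% of genes were called in the data, so they do not give the recovery of this comparison.

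Members, the partner list, the marker lists and the motifs were chosen with earlier results of these data known. Every called member is named, as are members that did not pass with a mean of at least 10 CPM, the others by counts or low-level values, and the 8 partner genes with the smallest p. Alternatives were DESeq2 1.42.0, limma-voom (limma 3.58.1), other size factors, filters and gene sets, a transcript length offset, the mitochondrial rRNA share as a covariate, no block, and fits without each pool or without pools 4 and 5.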

Additional observations from a re-analysis of the deposited data

Results flagged for a closer look

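In 40 members, the highest or lowest of the 5 libraries of a fraction stood far from the other 4 in 17 of 80 groups. A rate of 1 in 20 would give about 4, but only for normal and independent groups. The same libraries recur across members and CPM need not be normal, so that figure is a rough guide. Of these 17 values, 7 belong to the CD90-negative library of pool 3 and 4 to the CD90-positive library of pool 5.

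Pool 3 stood out in its CD90-negative library, where the levels above the other 4 were those of Slit3 (672 CPM, next 168), Sema3a (69.5, next 14.2), Efna5 (56.6, next 24.8), Sema4b (99.2, next 56.7), Sema4c (21.6, next 14.7) and Ntn1 (11.2, next 4.54). Sema3c was below the other 4 in that library, at 24.1 CPM with 69.6 as the next value. Sema4b also stood above the others in the CD90-positive library of the same pool, at 85.1 CPM.

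The CD90-positive library of pool 5 was above its group for Ntn4 (31.5 CPM, next 18.8), Plxnb2 (233 CPM, next 190.9), Sema4g (20.2 CPM, next 7.56) and Sema6a (26.5 CPM, next 11.4). For pool 2, Nrp1 was at 17.4 CPM and Sema7a at 15.9 CPM in its CD90-negative library, above the other 4. Sema3f was low in the CD90-negative library of pool 4 (8.33 CPM) and Unc5b in that of pool 5 (87.2 CPM). Robo4 had 0.233 CPM in the CD90-positive library of pool 1 and 0 in the other 4.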

How the results depend on the processing

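Counts are given as higher and lower. The members (11 and 11), the partner list (12 and 10) and all genes (896 and 1084) became 5 and 6, 6 and 4, and 421 and 544 without the replicate block. With DESeq2 they were 15 and 17, 16 and 17, and 1623 and 1809. Without pools 4 and 5 they were 5 and 2, 1 and 4, and 357 and 184. An offset for transcript length gave 9 members higher and 6 lower. The mitochondrial rRNA share as a covariate left 0 in each (882 of all genes at an unadjusted p under 0.05) and moved the members' median log2 fold from 0.0014 to 0.40. That fit hardly separates the share from the fraction. Leaving out each pool gave 6 to 9 and 3 to 15 members, 2 to 10 and 6 to 14 partner genes, 308 to 820 and 367 to 1199 of all genes, and a median of -0.129 to 0.019. The cause of these differences was not tested, beyond the fewer libraries in the fits that leave out pools.

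Signs turned for genes that were not called, and for Ntn5. With the covariate, which that fit hardly separates from the fraction, Ephb3 was at 0.42, Ephb4 at 0.16, Ntn5 at 4.05, Sema3f at 0.70, Sema4c at 0.17 and Unc5b at -0.041. Sema3f was at 0.0072 without the block, 0.0098 with upper-quartile factors, 0.31 with the length offset (Sema3b 0.064) and 0.024 over protein-coding genes only. Leaving out each pool gave -0.17 to 0.037 for Sema3f, -0.020 to 0.051 for Unc5b, -0.017 to 0.079 for Plxnb2 and -0.0061 to 0.095 for Plxna1. Members under 10 CPM and the CD90-negative library of pool 4, with 3.71 M nuclear protein-coding counts, limit the precision.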

Other observations

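Transcript shares add detail on which forms the counts of called members came from, as assigned by the authors' quantification. Slit3 counts lay almost wholly on its protein-coding transcript Slit3-201, at 97.9% ± 1.89 of the gene's counts in CD90-negative and 98.7% ± 0.396 in CD90-positive libraries (SD, n = 5), and those of Epha2 on Epha2-201 (93.0% ± 2.94 and 90.9% ± 3.28). Sema3e differed, with 51.5% ± 7.75 and 55.03% ± 27.02 of its counts on Sema3e-202, a transcript annotated as a retained intron. Retained introns also took 28.3% ± 14.9 and 40.8% ± 23.9 of the counts of Sema4a, and 33.1% ± 23.6 and 29.4% ± 16.8 of those of Sema5a. Epha3 counts were split between Epha3-201 (63.1% ± 37.1 and 36.4% ± 17.1) and Epha3-203 (28.2% ± 30.0 and 56.3% ± 19.8), with shares that overlapped between the fractions. The 5 Robo4 counts of the CD90-positive fraction all fell on Robo4-206, annotated as a retained intron.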
